A study of Mus musculus with 6 samples.

Results

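Endothelial transcripts were read on arrays of sorted cells of the mouse genital tubercle, from which the penis or clitoris develops. The endothelium was represented by 10 genes, Pecam1, Cdh5, Kdr, Flt1, Tek, Tie1, Emcn, Egfl7, Cldn5 and Plvap, and every probe set annotated to one of them was taken. This gave 17 of 45101 probe sets on the array, or 10 of the 18193 genes that had a probe set of their own. Flt1 and Egfl7 each had 4 probe sets, Cdh5 had 2 and the other genes had 1 each. A probe set is a group of short probes read as one value.

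All embryos carried the knock-in allele Shhtm1(EGFP/cre)Cjt, which makes a fused green fluorescent protein and Cre recombinase from the Shh locus, and at least one copy of the Cre-dependent yellow reporter Gt(ROSA)26Sortm3(CAG-EYFP)Hze, on a mixed background. Tubercles were dissected at 12.5 days post coitum (Theiler stage 20), dissociated with trypsin and sorted by fluorescence. The YFP-positive fraction is labelled as urethral epithelium and the YFP-negative fraction holds all other cells of the tubercle. Each fraction had 3 arrays, from pools of 3, 5 and 2 littermates of both sexes for replicates 1, 2 and 3. Cre recombination is permanent, so the reporter marks cells that express Shh and also cells that descend from such cells.

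Blood vessels are lined by endothelial cells, which belong to the YFP-negative fraction as far as they and their precursors do not make Shh. Their growth is driven by vascular endothelial growth factor (VEGF), which acts through the receptor kinase Kdr and is held in check by Flt1, and their maturation by the angiopoietins, which act through Tek. The cells are joined by the cadherin Cdh5, and their surface carries proteins that few other cells make in quantity.

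Signal differed between the arrays before any comparison. The median deposited signal over probe sets with 1 gene was 4.73, 3.56 and 0.34 in YFP-positive replicates 1, 2 and 3, and 7.62, 8.84 and 2.15 in YFP-negative replicates 1, 2 and 3. YFP-positive replicate 3 stood apart, with a rank correlation of 0.303 to 0.317 with the other arrays and a Gapdh control signal of 25.5 against 635 to 1853 on the others, so the log2 differences are given for the 6 arrays and for the 5 without it. Shh, whose locus drives the Cre, read 287, 718 and 16.9 in YFP-positive arrays and 1.31, 18.4 and 2.51 in YFP-negative arrays with probe set 1436869_at. Its other probe set, 1427571_at, read 5.12, 6.39 and 1.06 in YFP-positive arrays and 1.18, 1.49 and 1.05 in YFP-negative arrays, and was not called, with a difference of 0.51 on the log2 scale (adjusted p = 0.797, limma). With 3 arrays a fraction, precision is limited throughout.

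On every array but YFP-positive replicate 1, most endothelial probe sets lay at or below the background as defined here. Background was taken as the brightest of 27 bacterial control probe sets for which no transcript appeared to have been added. It was 4.47, 4.41 and 1.12 in YFP-positive replicates 1, 2 and 3, and 5.36, 8.28 and 2.03 in YFP-negative replicates 1, 2 and 3. This limit is strict, as the median control read 0.58, 0.29 and 0.34 in YFP-positive and 0.94, 0.69 and 0.31 in YFP-negative arrays. The median of the 17 endothelial probe sets was 6.32, 3.50 and 0.10 in YFP-positive and 5.27, 2.90 and 0.91 in YFP-negative arrays. Above the brightest control lay 10, 5 and 2 of the 17 endothelial probe sets in YFP-positive arrays, and 7, 5 and 6 of 17 in YFP-negative arrays. These are 58.8%, 29.4% and 11.8% in YFP-positive arrays and 41.2%, 29.4% and 35.3% in YFP-negative arrays. Over all probe sets with 1 gene the shares were 51.3%, 44.0% and 24.6% in YFP-positive arrays and 59.3%, 51.6% and 51.7% in YFP-negative arrays. YFP-positive replicate 1 was thus the only one of the 6 arrays on which the endothelial share was above that of all probe sets. None of the 17 lay above background on all 6 arrays, where 14.5% of the probe sets with 1 gene did, and 5 of the 17 lay above it on none, against 22.5%. Of the 10 defining genes, Egfl7 alone had a probe set above background in all 3 YFP-negative arrays, and Pecam1 and Tie1 had none above it in any array. That Egfl7 probe set was 1435823_x_at, of a kind that may cross-hybridize.

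**Figure D1:**
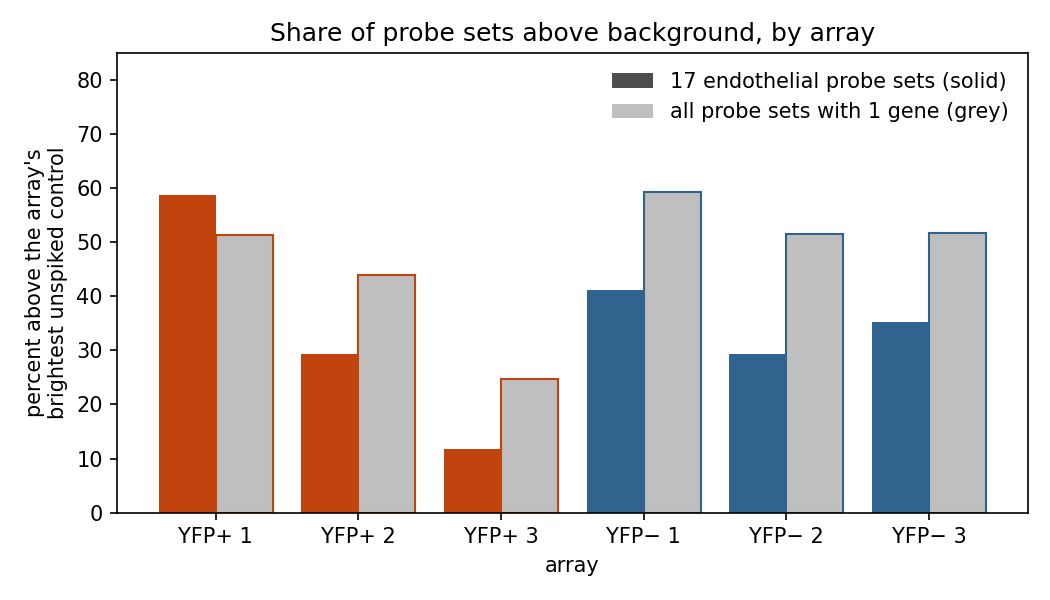
Percent of probe sets above the brightest unspiked control probe set of the same array (vertical axis), for the 17 endothelial probe sets (coloured bars) and all probe sets with 1 gene (grey bars), on the 3 YFP-positive arrays (left, orange) and the 3 YFP-negative arrays (right, blue). The endothelial share exceeds the grey bar only in YFP-positive replicate 1, with 58.8% against 51.3%.

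Neither Kdr nor Flt1 differed between the fractions by more than the spread between arrays under the test over all probe sets. Kdr, the main signalling receptor for VEGF and an early mark of endothelial progenitors, had a deposited signal of 18.5, 3.80 and 0.18 in YFP-positive replicates 1, 2 and 3 and 6.82, 21.2 and 0.91 in YFP-negative replicates 1, 2 and 3. It lay above background in 1 YFP-positive and 2 YFP-negative arrays, and the ranges overlapped. After quantile normalization, which gives each array the same distribution of signals, and on the log2(signal + 16) scale used for all tests, Kdr measured 4.58 ± 0.46 in YFP-positive and 4.40 ± 0.27 in YFP-negative arrays (SD, n = 3 each). The log2 difference, YFP-positive minus YFP-negative, was 0.18 (SE 0.29, adjusted p = 0.883, limma), and 0.38 (SE 0.29, adjusted p = 0.834) without YFP-positive replicate 3.

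Flt1, a receptor that binds VEGF tightly and signals weakly, gave unlike readings from its 4 probe sets. Probe set 1451756_at read 9.11, 3.50 and 0.09 in YFP-positive arrays and 5.27, 1.76 and 3.00 in YFP-negative arrays, and the log2 difference was 0.10 (SE 0.21, adjusted p = 0.910, limma), and 0.25 (SE 0.22) without YFP-positive replicate 3. Probe set 1454037_a_at read 3.48, 3.57 and 1.15 in YFP-positive arrays and 0.97, 1.24 and 0.32 in YFP-negative arrays. Its normalized values did not overlap between the fractions, 4.28, 4.36 and 4.96 in YFP-positive against 4.05, 4.06 and 4.08 in YFP-negative arrays. The log2 difference was 0.47 (SE 0.21, unadjusted p = 0.0441, adjusted p = 0.797, limma), and it was 0.30 (SE 0.11, adjusted p = 0.774) without YFP-positive replicate 3. Only YFP-positive replicate 3 was above background for this probe set, with 1.15 against 1.12, so no fold is given. Probe sets 1440926_at and 1419300_at were above background on no array, and their log2 differences were -0.01 and 0.05, or 0.04 and 0.03 without YFP-positive replicate 3.

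The angiopoietin receptors gave no difference past the test either. Tek, the receptor kinase for angiopoietins, read 6.72, 0.18 and 1.07 in YFP-positive arrays and 10.5, 14.3 and 0.06 in YFP-negative arrays. It was above background in YFP-positive replicate 1 and in YFP-negative replicates 1 and 2, and within each fraction its highest and lowest arrays lay further apart than the fractions did. The log2 difference was 0.10 (SE 0.26, adjusted p = 0.927, limma) in 6 arrays and -0.09 (SE 0.24, adjusted p = 0.959) without YFP-positive replicate 3. Without YFP-negative replicate 3 it was -0.07, with values as deposited -0.35 and with median centring -0.16. Its direction thus depended on single arrays and on the scaling. Tie1, the related receptor that modulates Tek, read 3.69, 0.76 and 0.06 in YFP-positive arrays and 1.62, 0.59 and 0.21 in YFP-negative arrays, above background on none. Its log2 difference was 0.09, and 0.16 without YFP-positive replicate 3.

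Among the junction genes, Cldn5 was the only one above background in 2 arrays of each fraction. Cldn5, a tight junction claudin best known from the blood-brain barrier, read 8.69, 8.38 and 1.04 in YFP-positive arrays and 0.80, 11.6 and 4.59 in YFP-negative arrays. After normalization it measured 4.73 ± 0.11 in YFP-positive and 4.43 ± 0.38 in YFP-negative arrays (SD, n = 3 each). The fractions differed by 0.30 on the log2 scale (SE 0.27, adjusted p = 0.802, limma), and by 0.33 (SE 0.28) without YFP-positive replicate 3. In deposited signal the widest gap lay within the YFP-negative fraction, where replicate 1 was near the floor of the array. Cdh5, the adhesive cadherin of endothelial junctions, read 6.32, 1.21 and 0.07 in YFP-positive arrays and 5.31, 7.89 and 2.12 in YFP-negative arrays with probe set 1433956_at. Its log2 difference, -0.08 (SE 0.17, adjusted p = 0.910, limma), was the lowest of the 17, and it was -0.01 (SE 0.19) without YFP-positive replicate 3. The other Cdh5 probe set, 1422047_at, and Pecam1, an adhesion molecule shared by endothelium, platelets and leukocytes, were above background on no array. Pecam1 read 0.16, 0.75 and 0.16 in YFP-positive arrays and 0.34, 0.82 and 0.26 in YFP-negative arrays. The log2 differences of these probe sets were 0.28 for Cdh5 and 0.08 for Pecam1, and 0.02 for both without YFP-positive replicate 3.

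Among the surface and secreted proteins, Plvap and Emcn gave no difference past the test. Plvap, which forms the diaphragms of fenestrated capillaries, read 20.1, 3.05 and 0.06 in YFP-positive arrays and 5.77, 6.44 and 3.68 in YFP-negative arrays. In deposited signal, YFP-positive replicate 1 lay above all YFP-negative arrays and the other YFP-positive arrays lay below them. After normalization YFP-positive replicate 2, at 4.31, lay above YFP-negative replicates 1 and 2, at 4.28 each. The fractions differed by 0.11 on the log2 scale (SE 0.30, adjusted p = 0.929, limma), and by 0.38 (SE 0.29) without YFP-positive replicate 3. Emcn, a sialomucin of capillary and venous endothelium, read 4.49, 4.22 and 0.04 in YFP-positive arrays and 12.0, 0.62 and 0.74 in YFP-negative arrays. It was above background in YFP-positive replicate 1, by 4.49 to 4.47, and in YFP-negative replicate 1, and the log2 difference was 0.02 (SE 0.18, adjusted p = 0.977, limma), and 0.17 (SE 0.21) without YFP-positive replicate 3.

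Egfl7, a protein that endothelial cells secrete into their matrix, was the gene most often above background. Probe set 1421335_a_at read 7.42, 6.10 and 2.57 in YFP-positive arrays and 9.43, 1.51 and 3.55 in YFP-negative arrays, above background in all 3 YFP-positive and 2 YFP-negative arrays. Its log2 difference of 1.04 (SE 0.57, adjusted p = 0.797, limma) was the highest of the 17, but it was 0.24 (SE 0.24, adjusted p = 0.863) without YFP-positive replicate 3. That array's 2.57 became 7.08 on the normalized log2 scale, against 4.54 and 4.63 in YFP-positive replicates 1 and 2. Probe sets 1435823_x_at and 1451428_x_at, a suffix the manufacturer gives to sets that may cross-hybridize, differed by 0.05 (SE 0.28) and 0.04 (SE 0.24), or by 0.28 (SE 0.25) and 0.17 (SE 0.24) without YFP-positive replicate 3. Probe set 1435823_x_at read 17.2, 4.88 and 0.10 in YFP-positive arrays and 12.8, 11.5 and 3.15 in YFP-negative arrays. Probe set 1451427_a_at read 3.99, 6.05 and 0.09 in YFP-positive arrays and 2.17, 2.79 and 0.39 in YFP-negative arrays, above background in 1 YFP-positive array only. Its log2 difference was 0.25 (SE 0.15, adjusted p = 0.797, limma), and 0.41 (SE 0.17, unadjusted p = 0.0322, adjusted p = 0.818) without YFP-positive replicate 3.

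**Figure D2:**
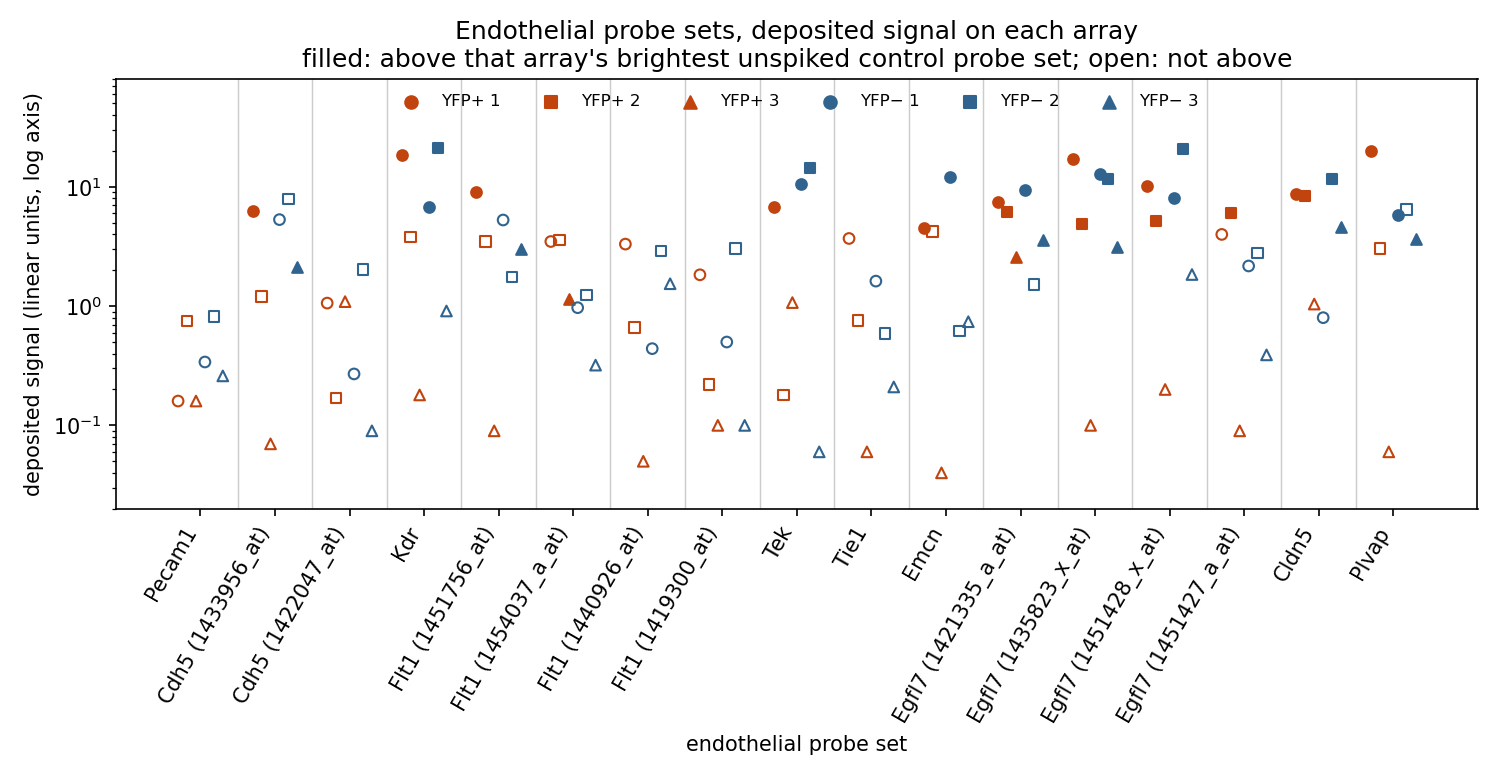
Deposited signal (vertical log axis, linear units as deposited) of each of the 17 endothelial probe sets on the 6 arrays, with YFP-positive arrays in orange to the left of YFP-negative arrays in blue and the shape giving the replicate. Filled points lie above the brightest unspiked control probe set of their own array; Pecam1 and Tie1 have none, and most points of YFP-positive replicate 3 (orange triangles) lie below 1 unit.

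No endothelial probe set passed an adjusted p of 0.05 (limma), with 0 of 17 in the 6 arrays and 0 of 17 without YFP-positive replicate 3. Over all 45037 probe sets tested, 0.02% passed in the 6 arrays and 0.0666% in the 5. At an unadjusted p under 0.05 limma counted 1 of the 17 in the 6 arrays, against 3.9% of all probe sets, and 2 of the 17 in the 5 arrays, against 6.03%. Values did not overlap between the fractions for 2 of the 17, where 11.5% of all probe sets did not, and without YFP-positive replicate 3 for 3 of the 17, against 22%. These shares are near the background ones. Adjusted p-values ran from 0.797 to 0.982 in the 6 arrays and from 0.774 to 0.995 in the 5. Fewer cells of a type and less RNA per cell cannot be told apart in such bulk samples.

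By direction, 15 of the 17 log2 differences were above 0 and 2 below, with a median of 0.10, while over all probe sets 48.4% were below 0 and the median was 0.01. This direction was kept with median centring but not without scaling. With median centring, 14 of the 17 were above 0 with a median of 0.18, where 49.1% of all probe sets were below 0. On the values as deposited, 10 of the 17 were below 0 with a median of -0.01, where 85.5% of all probe sets were below 0 with a median of -0.19. The direction also leaned on YFP-positive replicate 1, without which 8 of the 17 were below 0 and the median was 0.02. Probe sets of 1 gene are not independent, and 8 of the 17 belong to Flt1 or Egfl7.

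The scale limited how low an endothelial probe set could go. A signal of 0 gives 4 on the log2(signal + 16) scale, and the YFP-negative means of the 17 lay between 4.04 and 4.52, so a signal of 0 in all YFP-positive arrays would have given a log2 difference between -0.04 and -0.52. For 13 of the 17 the 95% interval of the difference, not adjusted for the number of probe sets, reached that value in the 6 arrays. A fall to a signal of 0 was not distinguishable there from no change. Without YFP-positive replicate 3 it was reached for 7 of the 17. Among the other 10 were Kdr, with an interval of -0.25 to 1.01, Plvap, with -0.27 to 1.02, and Cldn5, with -0.28 to 0.93, while Cdh5, Pecam1, Tek and Emcn were among the 7. Tie1, above background on no array, was also among the 10. An absent transcript need not read 0, as the brightest unspiked control read 4.47, 4.41 and 1.12 in YFP-positive replicates 1, 2 and 3. An interval short of that value therefore does not show that a transcript was present. With a pseudocount of 1 in place of 16, which stretches dim signals, the 17 log2 differences ran from -0.54 to 2.15 and their adjusted p-values from 0.835 to 0.989 (limma).

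**Figure D3:**
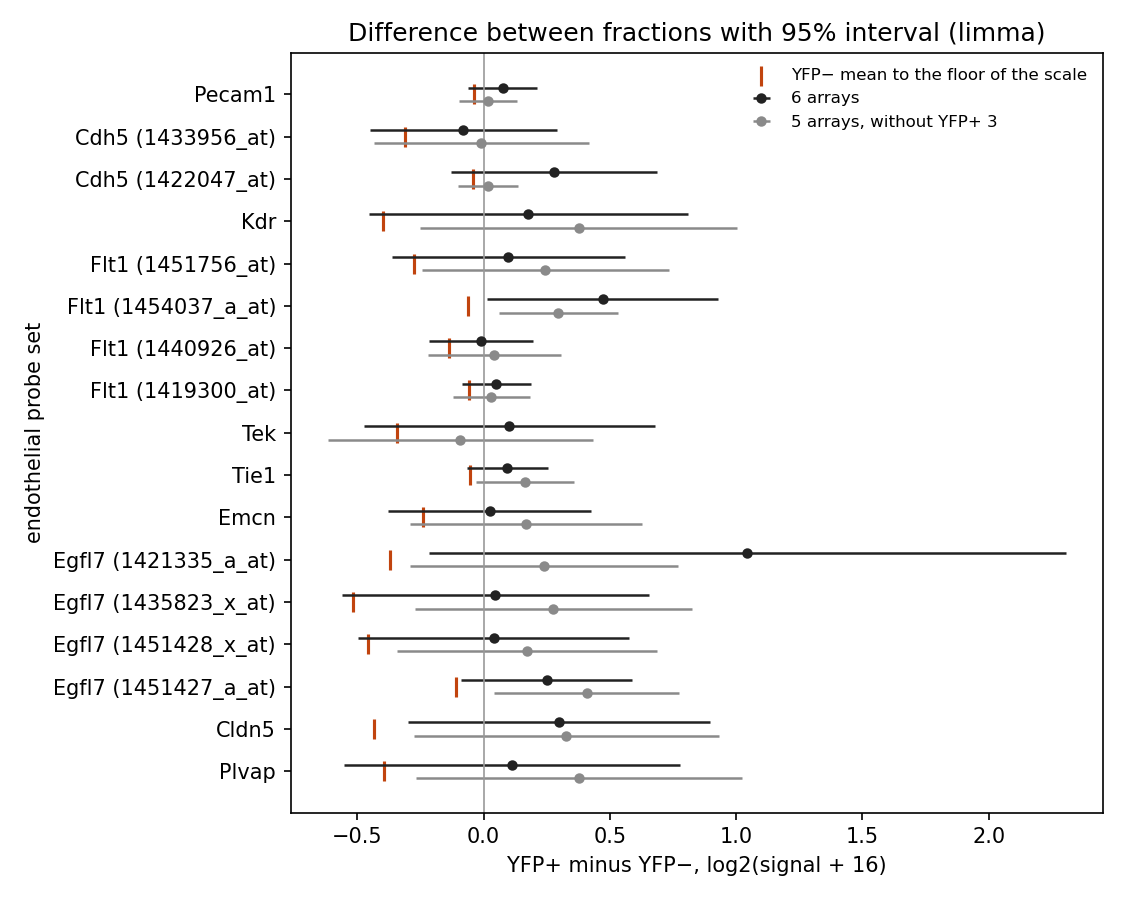
Log2 difference, YFP-positive minus YFP-negative, of each endothelial probe set on the log2(signal + 16) scale, with its 95% interval from limma, in the 6 arrays (black) and without YFP-positive replicate 3 (grey). Orange ticks mark the difference that a signal of 0 in the YFP-positive arrays would give, between -0.04 and -0.52.

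Further endothelial genes gave no called difference either. Of 30 further endothelial genes, such as Eng, Cd34, Esam and Robo4, none passed the test in the 6 arrays or without YFP-positive replicate 3, and their median log2 difference was 0.05, with 20 above 0 and 10 below, or 0.04 with 16 above and 14 below without YFP-positive replicate 3. An unadjusted p under 0.05 (limma) was reached by 1 of the 30 in the 6 arrays, where 3.9% of all probe sets reached it, and by 4 of the 30 in the 5 arrays, against 6.03%. These 4 were Vwf, Afap1l1 and Arhgap29, which were higher in YFP-positive arrays, and Sox13, which was lower. Afap1l1, an actin-binding adaptor protein, had the second largest difference of this list, 0.75 (SE 0.29, adjusted p = 0.797, limma) in the 6 arrays and 0.78 (SE 0.27, adjusted p = 0.736) in the 5, with signals of 11.9, 17.0 and 1.29 in YFP-positive arrays and 5.63, 5.64 and 3.68 in YFP-negative arrays. Clec14a, a lectin of endothelial junctions, had the largest, 0.89 (SE 0.59, adjusted p = 0.797, limma), and this was -0.01 without YFP-positive replicate 3. Vwf, the clotting protein stored in endothelium and platelets, read 9.00, 4.14 and 0.05 in YFP-positive arrays and 0.40, 0.37 and 0.31 in YFP-negative arrays. YFP-positive replicate 1 alone was above background for Vwf, and the log2 difference was 0.32 (SE 0.15, adjusted p = 0.797, limma), and 0.55 (SE 0.15, unadjusted p = 0.00345, adjusted p = 0.619) without YFP-positive replicate 3.

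Transcription factors of endothelium showed no called difference. Of 21 factors 9 had a log2 difference above 0 and 12 below, with a median of -0.14, or 8 above and 13 below with a median of -0.09 without YFP-positive replicate 3. An unadjusted p under 0.05 (limma) was reached by 1 of the 21 in the 6 arrays, against 3.9% of all probe sets. In the 5 arrays 3 of the 21 reached it, against 6.03%. Normalized values did not overlap between the fractions for 2 of the 21, Fli1 and Hey2, against 11.5% of all probe sets. Of the 21, 11 were above background in all 3 YFP-negative arrays and 2 in all 3 YFP-positive arrays. By array, 14, 6 and 7 were above it in YFP-positive replicates 1, 2 and 3, and 15, 15 and 12 in YFP-negative replicates 1, 2 and 3. Over all probe sets with 1 gene the shares were 51.3%, 44.0% and 24.6% in YFP-positive and 59.3%, 51.6% and 51.7% in YFP-negative arrays. Fli1, an ETS factor of endothelium and blood, read 12.1, 1.90 and 0.77 in YFP-positive arrays and 40.0, 62.4 and 5.80 in YFP-negative arrays. All YFP-positive values of Fli1 were below all YFP-negative ones after normalization, and the log2 difference was -0.77 (SE 0.30, unadjusted p = 0.0272, adjusted p = 0.797, limma), and -0.83 (SE 0.29, adjusted p = 0.736) without YFP-positive replicate 3. Ets1 and Mef2c, which mesenchyme also expresses, had log2 differences of -0.82 (SE 0.69) and -0.57 (SE 0.40), or -1.29 (SE 0.70) and -1.001 (SE 0.33) without YFP-positive replicate 3. For Mef2c the unadjusted p without that array was 0.0099 and the adjusted p was 0.715 (limma). Erg, another ETS factor, differed by -0.25 (SE 0.33), or by -0.49 (SE 0.32) in the 5 arrays. The 3 highest differences of the list were above 0, those of Sox7 at 0.50 (SE 0.41), Gata2 at 0.33 (SE 0.47) and Lyl1 at 0.29 (SE 0.34). Without YFP-positive replicate 3 they were -0.09 for Sox7, 0.93 (SE 0.32, unadjusted p = 0.0143, adjusted p = 0.736, limma) for Gata2 and -0.19 for Lyl1. Sox17, Sox18 and Etv2, the factors most closely tied to early and arterial endothelium, were above background on no array.

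The ligands and further receptors of the VEGF, angiopoietin and apelin systems, some made by endothelium and some by other cells, gave no called difference. This list also held Angptl1, an angiopoietin-like protein, and Pdgfb, a platelet-derived growth factor, with log2 differences of 0.16 and 0.17. Of 14 measured, 10 were above background in all 3 YFP-negative arrays and 1 in all 3 YFP-positive arrays. By array, 11, 6 and 3 of the 14 were above it in YFP-positive replicates 1, 2 and 3, and 13, 11 and 11 in YFP-negative replicates 1, 2 and 3. Over all probe sets with 1 gene the shares were 51.3%, 44.0% and 24.6% in YFP-positive and 59.3%, 51.6% and 51.7% in YFP-negative arrays. The measures are not strictly alike, as each listed gene stands by its brightest probe set. Of the log2 differences 5 were above 0 and 9 below with a median of -0.18, or 3 above and 11 below with a median of -0.12 without YFP-positive replicate 3. Vegfa, the main VEGF ligand, read 27.5, 6.89 and 0.10 in YFP-positive arrays and 38.5, 30.2 and 6.38 in YFP-negative arrays. The log2 difference of Vegfa was -0.31 (SE 0.36, adjusted p = 0.836, limma), and it was -0.01 without YFP-positive replicate 3. Angpt1, the activating ligand of Tek, read 14.4, 6.39 and 0.04 in YFP-positive arrays and 32.1, 51.1 and 3.29 in YFP-negative arrays, and differed by -0.46 (SE 0.33, adjusted p = 0.797, limma), or by -0.22 (SE 0.29) without YFP-positive replicate 3. Angpt2, the context-dependent ligand, read 18.3, 28.7 and 0.25 in YFP-positive arrays and 14.9, 28.5 and 2.13 in YFP-negative arrays. Its log2 difference was 0.48 (SE 0.40, adjusted p = 0.798, limma), and 0.96 (SE 0.31, unadjusted p = 0.0100, adjusted p = 0.715) without YFP-positive replicate 3. Aplnr, the apelin receptor of sprouting and venous endothelium, read 26.2, 0.11 and 0.82 in YFP-positive arrays and 30.5, 73.7 and 4.21 in YFP-negative arrays, and differed by -0.51 (SE 0.39), or by -0.49 (SE 0.42) without YFP-positive replicate 3. Flt4, a further VEGF receptor, differed by -0.16 (SE 0.15, adjusted p = 0.805, limma), or by -0.20 (SE 0.17) without that array. It was above background in 1 array. Its normalized values did not overlap between the fractions, as for 1 of the 14, against 11.5% of all probe sets.

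Markers of other cell types set these values in context. The urethral epithelium list had 8 of 8 differences above 0, a median of 3.09 and 3 genes called higher, or 7 without YFP-positive replicate 3, and the red cell list had 7 of 7 below 0 and a median of -1.99, with none called in the 6 arrays and 2 called lower without YFP-positive replicate 3. Both lists were chosen with earlier results of these arrays known. Relative to the YFP-negative mean, the red cell median was -1.93, -2.12 and -2.45 in YFP-positive replicates 1, 2 and 3. The endothelial median over the 10 genes, each by its brightest probe set, was 0.17, 0.05 and -0.07 in YFP-positive replicates 1, 2 and 3, and -0.02, -0.01 and 0.03 in YFP-negative replicates 1, 2 and 3. The summed deposited signal of these 10 probe sets was 5.34 to 85.1 in YFP-positive and 19.1 to 66.8 in YFP-negative arrays. For the 7 red cell genes the sum was 11.1 to 1437 in YFP-positive and 4024 to 6462 in YFP-negative arrays.

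Mesenchymal markers differed between the YFP-positive arrays. Their median against the YFP-negative mean was -0.06 in YFP-positive replicate 1 and -2.91 and -2.61 in replicates 2 and 3, with 0 of 8 differences above 0 and a summed signal of 9.94 to 2022 in YFP-positive and 871 to 5194 in YFP-negative arrays. YFP-positive replicate 1 was also the one with 10 of 17 endothelial probe sets above background. Among YFP-positive arrays, by the brightest probe set, it had the highest normalized values of Cdh5, Kdr, Flt1, Tie1 and Plvap. Those of Emcn and Cldn5 were highest in replicate 2, and those of Pecam1, Tek and Egfl7 in replicate 3. Pericyte and smooth muscle markers, the cells that wrap vessels, had a median of 0.04, -0.29 and -0.15 in YFP-positive replicates 1, 2 and 3, a summed signal of 5.74 to 225 in YFP-positive and 72.2 to 478 in YFP-negative arrays, and 3 of 8 differences above 0. Macrophage markers had 6 of 8 and platelet markers 5 of 6 differences above 0, with summed signals of 3.48 to 118 and 1.18 to 124 in YFP-positive arrays and 7.65 to 69.9 and 11.3 to 58.6 in YFP-negative arrays. Pf4, a platelet chemokine, read 73.3, 58.4 and 0.61 in YFP-positive arrays and 13.4, 18.8 and 1.33 in YFP-negative arrays, and its log2 difference was 1.43 (SE 0.55, adjusted p = 0.797, limma). Without YFP-positive replicate 3 Pf4 was called higher, at 2.33 (SE 0.28, adjusted p = 0.0108, limma), as was Csf1r, the growth factor receptor of macrophages, at 2.07 (SE 0.31, adjusted p = 0.0408, limma). Each was the only gene of its list called. C1qb and C1qa of the macrophage list differed by 1.32 and 0.91 in the 6 arrays (adjusted p = 0.658 and 0.797, limma). Without YFP-positive replicate 3 they differed by 1.46 and 0.80. Ppbp of the platelet list differed by 0.78, or by 1.34 (adjusted p = 0.102, limma) without YFP-positive replicate 3. The list medians were 0.15 for macrophages and 0.11 for platelets in the 6 arrays, and 0.31 and 0.24 in the 5. In the 6 arrays Ptprc of the macrophage list differed by -0.12 and Itga2b of the platelet list by -0.14. Pecam1, which platelets and macrophages share with endothelium, was above background on no array. The part of these cells in the endothelial readings was not tested.

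**Figure D4:**
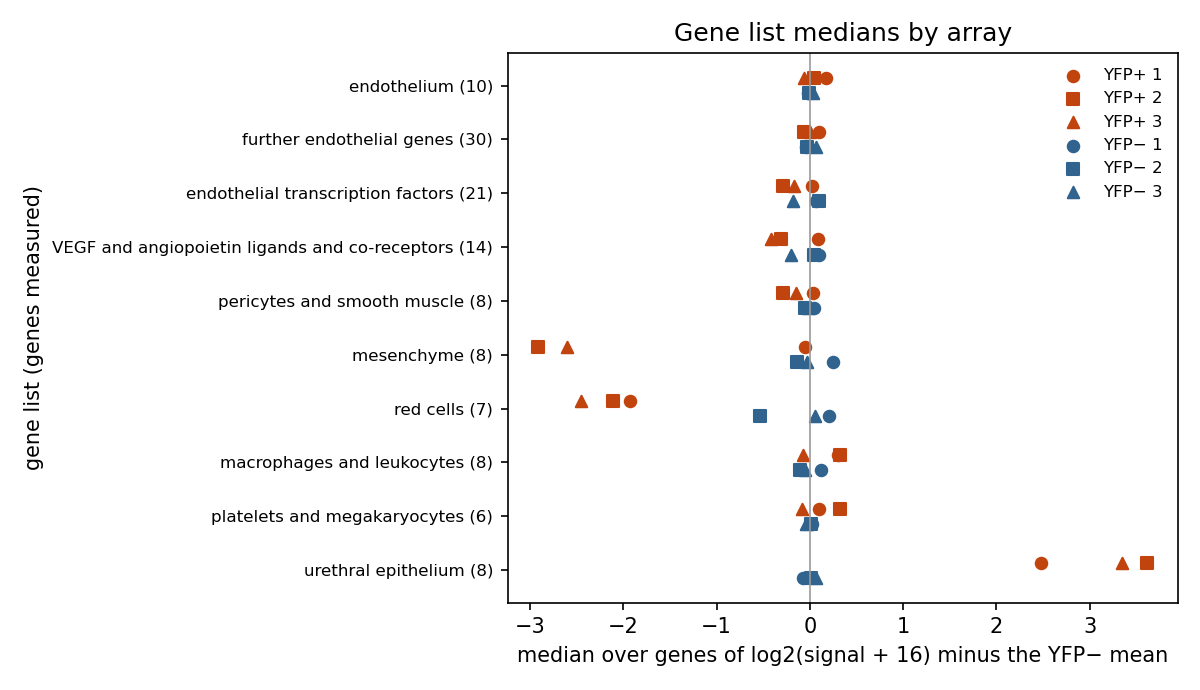
Median over the genes of each list of the normalized log2(signal + 16) value minus the YFP-negative mean of the gene (horizontal axis), for each YFP-positive array (orange, upper points) and each YFP-negative array (blue, lower points), with the number of genes measured in brackets. Endothelial medians lie between -0.07 and 0.17 on all arrays, whereas red cell medians lie near -2 and urethral epithelium medians above 2 in YFP-positive arrays.

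Correlations between the 10 endothelial genes across the arrays spanned both signs. Over the 45 pairs of genes, each by its brightest probe set, Pearson's correlation across 6 arrays ran from -0.78 to 0.95 with a median of 0.09, or of 0.25 over the 5 arrays without YFP-positive replicate 3, and the points share array and signal level. The mean profile of the 10, each centred on its own mean, spanned -0.13 to 0.19. It was 0.16 in YFP-positive replicate 3, where Egfl7 stood at 7.08 against a YFP-negative mean of 4.37. The median of the 10 against the YFP-negative mean was -0.07 on that array. How far the similar profiles rest on that Egfl7 value was not tested. The genes of most similar profile among 4796 others were Col4a1, a collagen of basement membranes (r = 0.975), Brd2 (0.969), Uhrf1bp1l (0.946), Fam168a (0.945) and Ctsb, a lysosomal protease (0.892), over 6 arrays. Unlike the endothelial genes, all 5 were above background on all 6 arrays, and none of them was called. Col4a1 read 316, 93.6 and 6.05 in YFP-positive arrays and 222, 340.1 and 74.0 in YFP-negative arrays.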

How the data were processed

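Biotin-labelled RNA of sorted cells was hybridized to Affymetrix mouse arrays, 1 array for each pool and fraction. The deposited table holds 1 intensity per probe set and array. These intensity values are not negative and were read as linear. GCOS is named for 1 of the 6 samples per the submitters' processing notes; how signals were summarized, scaled or filtered is not given in the sources used here. Medians of the arrays differ many-fold while hybridization controls are alike, so the values had apparently not been scaled.

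Here 64 control probe sets were set aside, and 45037 were quantile normalized and transformed to log2(signal + 16), which understates changes of dim probe sets. Of these, 34945 had 1 gene symbol, 932 several and 9160 none. All 45037 were fitted without a filter in limma 3.58.1 under R 4.3.3 (lmFit, then eBayes with trend), and p-values were adjusted over all of them by Benjamini-Hochberg. With a filter at the 30th percentile, 12 of the 17 endothelial probe sets would have passed. A gene with several probe sets stands in lists by the brightest.

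Groups came from the labels. Pools are separate litters only as far as the labels tell, so p-values measure the spread between arrays. The fit was tested on simulated data. Comparison lists name genes past the test or with the largest differences, and others that were chosen after their values were seen. Genes of similar profile were the 5 with the highest correlation among those with an SD of at least 0.5. The members and lists were chosen with earlier results of these data known. A pool size block, other scalings and pseudocounts, a filter, gene level, array weights and arrays left out were tried. Angptl2 is not analysed here.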

Additional observations from a re-analysis of the deposited data

How the results depend on the processing

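No endothelial probe set passed an adjusted p of 0.05 under any of 16 other settings, 1 of which, a pseudocount of 1 without YFP-positive replicate 3, was chosen after seeing the data. Adjusted p-values ran from 0.384 upwards (limma). Of 258 recomputed differences 222 kept their sign and 36 did not, and none of those 36 was past the threshold on either side; the cause was not tested. With values as deposited the log2 difference was -0.010 for Pecam1, -0.000296 for Cdh5 1422047_at, -0.13 for Kdr, -0.040 for Flt1 1419300_at, -0.35 for Tek, -0.077 for Emcn, and -0.15 and -0.27 for Egfl7 1435823_x_at and 1451428_x_at. With median centring it was 0.17 for Flt1 1440926_at, -0.16 for Tek and -0.080 for Egfl7 1451428_x_at. With a pseudocount of 1 it was -0.11 for Egfl7 1435823_x_at and -0.077 for Plvap, and the median of the 17 was 0.44, a change of scale. With array weights it was 0.062 for Flt1 1440926_at and -0.14 for Tek. Without replicate 3 of both fractions it was 0.014 for Cdh5 1433956_at, 0.13 for Flt1 1440926_at and -0.31 for Tek. With the added setting it was 0.31 for Flt1 1440926_at and -0.43 for Tek, and the median was 0.82. Leaving out 1 array at a time gave -0.083 to 0.38 for Kdr, -0.032 to 0.25 for Flt1 1451756_at, -0.079 to 0.057 for Flt1 1440926_at, -0.093 to 0.33 for Tek, -0.065 to 0.17 for Emcn, -0.19 to 0.28 and -0.059 to 0.17 for Egfl7 1435823_x_at and 1451428_x_at, and -0.21 to 0.38 for Plvap. Over all probe sets 9 passed, against 0 with values as deposited, a pseudocount of 64 or without replicate 3 of both fractions, 39 with median centring, 4 with the filter, 2 at gene level, 154 with array weights, 60 with the added setting and 0 to 30 with 1 array left out. A replicate block by pool size gave 4 and changed no endothelial call, with a median of 0.10. The labels do not say that arrays of equal pool size share litters, and deviations from the group means correlated at 0.12, 0.03 and 0.10 between them. Signal over background limits what can be read, as 5 of the 17 probe sets were above it on no array.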
